A study of Mus musculus with 3 samples.

Results

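The 10 genes described here encode brakes on mitogen-activated protein (MAP) kinase signalling: the dual-specificity phosphatases Dusp1, Dusp2, Dusp4, Dusp5, Dusp6 and Dusp10, the Sprouty proteins Spry1 and Spry2, and the Sprouty-related proteins Spred1 and Spred2. They were taken by gene name from the non-control spots of a mouse expression microarray: 10 of 31131 gene names, read by 12 of 39429 probes. Every probe was printed as 1 spot, and Spred1 had 3 probes. The gene names were chosen with earlier results of these arrays known.

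The RNA came from bone-marrow-derived mast cells (BMMCs), cultured mast cells derived from marrow progenitors, from male mice 12 weeks old of C57BL/6 background that lack Pafah2, a phospholipase that releases oxidised fatty acids. For 12 h, cells received the epoxidised omega-3 lipids 17,18-EpETE and 19,20-EpDPE together (300 nM in all, 2 parts to 3), or GW9662 at 0.5 µM, which blocks PPAR gamma, a lipid-sensing nuclear receptor, or DMSO as vehicle. All 3 groups lacked Pafah2 and none had the intact gene, so nothing here bears on the deletion itself. Each group was 1 array, so the spread between cultures is unknown and no test was possible.

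MAP kinases (ERK, JNK and p38) carry signals from receptors such as Kit and the IgE receptor of mast cells to the nucleus. Dual-specificity phosphatases switch a MAP kinase off by removing phosphate from the threonine and tyrosine of its activation loop. Many are themselves transcribed when the kinases are active, so that they close a negative feedback loop. Sprouty and Spred proteins act further upstream and hold back the step from receptor tyrosine kinases through Ras to Raf.

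The assignment of the treated arrays is uncertain. The authors also gave a value table, whose vehicle column matched its own scanner file. Its epoxide column matched the GW9662 scanner file, and its GW9662 column matched the epoxide file, in 100% of non-control spots each. Arrays are named below by the sample to which the scanner file is attached. If the value table is right, every value given for 1 treated array belongs to the other treatment. Levels are log2 intensities minus the log2 of each array's 75th percentile, a log2 ratio is a difference of 2 levels, and a gene counted as measured in a comparison when its probe was well above background on both arrays. In bulk RNA a smaller share of cells with a transcript and less of it per cell cannot be told apart.

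The probes are shown because each gene rests on so few of them. The first 30 of the 60 bases of the probes for Dusp1 and Dusp2, whose values differ most, of the Dusp6 probe, and of the 3 Spred1 probes (named by their row on the array) are given 5′ to 3′ in the sense direction. Capitals mark ATTTA, the core of the AU-rich elements found in many short-lived messages.
Dusp1: gcgtatgagagtttttacctttATTTAttt
Dusp2: gtgggcatctcgctgtaattggtgctgaaa
Dusp6: catttggtggatgcaacaggttgagaggaa
Spred1, row 133: cattaatattttcagtttgtttaaccactt
Spred1, row 356: caacctcttcattgtttaatgttctggtct
Spred1, row 432: gtgatatgctccagcaaacaggttaaaaat
ATTTA stood 1 time in the whole probe of Dusp1, of Dusp2 and of Spred1 in row 356, beyond the bases shown for Dusp2 and this Spred1 probe, and not in the other 9 probes of these genes. Of all 39429 probes, 8.01% held it. Which exon each probe lies in was not determined here.

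The mast cell label was borne out by the arrays. Of 12 mast cell markers, 11 were well above background on each array, all but Tpsab1, and their summed level was 512 times the 75th percentile with epoxides, 591 with GW9662 and 660 with vehicle. Of the markers of other cells, all 3 of basophils were above background on each array, as were 3 of 5 of macrophages, 2 of 4 of T cells, 1 of 3 of erythroid cells and 1 of 3 of stromal cells. For neutrophils 4, 4 and 3 of the 7 found on the array were above background on the epoxide, GW9662 and vehicle arrays, and for B cells 0, 1 and 0 of 3. The summed level of the neutrophil markers was 1.33, 1.97 and 1.90 in that order, and that of the T cell markers 1.45, 2.07 and 2.38. For macrophage markers the sum was 1.63, 1.62 and 1.61. That of the basophil markers was 12.7, 12.8 and 12.9, the highest of the lists other than that of mast cells. The neutrophil gene Mpo (row 279) had levels of -5.42, -2.43 and -5.48 on these arrays, not well above background with vehicle, and the B cell gene Cd79a (row 312) had -5.66, -1.77 and -6.00, above background with GW9662 alone. Markers of other cells well above background on all 3 arrays included Elane of neutrophils, Adgre1, Csf1r and Cd68 of macrophages, and Cd3e and Cd4 of T cells. Among the markers of these lists, Ltf, S100a8, S100a9, Mrc1, Ms4a1, Cd3g, Cd8a, Klf1, Col1a1 and Col1a2 were not well above background on any array. What part such cells have in the values below was not tested. Across all 3 arrays, readings of repeated probes in a band of 220 of the 532 rows, ending at row 400, lay at least 2-fold from the median of their probe in 7.69% of cases, against 0.589% in the other rows. The probes of Dusp2 (row 366), Dusp4 (row 261), Spry2 (row 273) and 1 of 3 for Spred1 (row 356) lie in this band, called the doubtful rows below, as do 41.9% of all non-control spots. The probes of Mpo (row 279) and Cd79a (row 312) lie in it as well, each printed as 1 spot.

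Dusp1 was lower on both treated arrays than with vehicle, the largest difference from vehicle among the measured genes of those named at the start. Of the further family members described below, the dim gene Dusp8 differed more with epoxides, at a log2 ratio of -0.63. The product of Dusp1 acts in the nucleus on p38, JNK and ERK and limits inflammatory gene expression. The level of Dusp1 was -0.58 with epoxides and -0.75 with GW9662, against -0.05 with vehicle. Before scaling its intensities were 1554 with epoxides and 1195 with GW9662, against 1845 with vehicle, while the 75th percentiles of these arrays were 2316, 2004 and 1916. Vehicle was the highest of the 3 arrays with and without scaling.

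The log2 ratio of Dusp1 over vehicle was -0.52 for epoxides (1.44-fold lower) and -0.69 for GW9662 (1.61-fold lower). The standard deviation (SD) that the scanner software's error model gives for each ratio was 0.205, which is larger than the SD of 0.0803 and 0.0798 found from repeated copies of other probes, and both cover the spot and not the culture. The difference between epoxides and GW9662 was 0.17, within the error model SD of 0.205 and larger than the SD of 0.0764 from repeated copies. The probe, on chromosome 17 at 26642796 to 26642853 (mm9), lies in row 481, outside the doubtful rows. Measured spots within 10 rows and 10 columns of it had a median ratio of -0.06 for epoxides over vehicle (138 spots) and -0.02 for GW9662 over vehicle (137 spots).

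**Figure D1:**
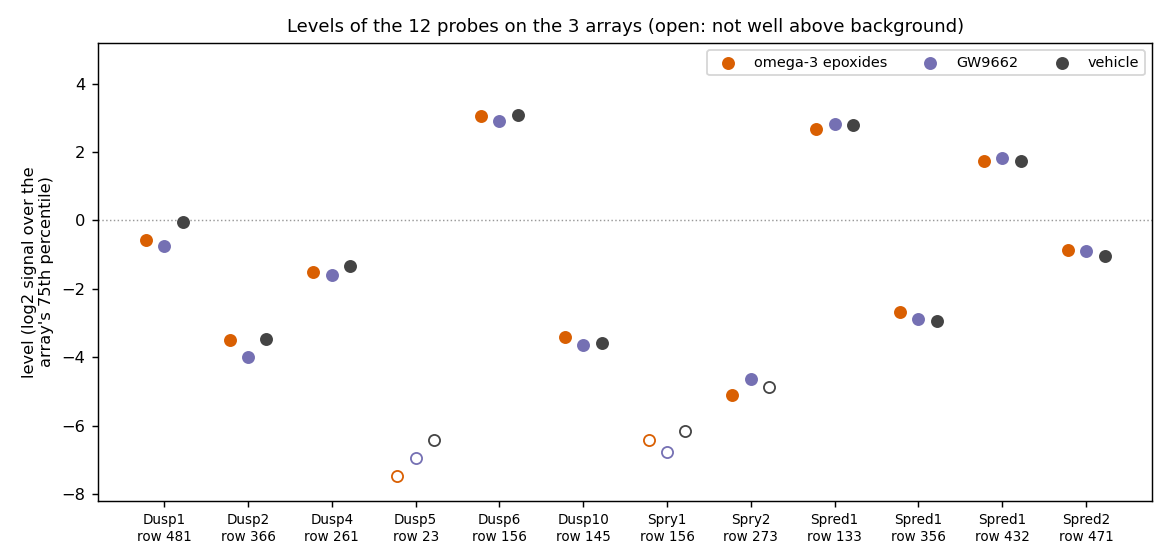
Levels of the 12 probes by array. The vertical axis is the log2 signal over the array's 75th percentile, each point is 1 spot on the array of cells given omega-3 epoxides, GW9662 or vehicle, and open points were not well above background. Dusp1 sits at -0.58 and -0.75 on the treated arrays and at -0.05 with vehicle, and the probes of Dusp5 and Spry1 are open on all 3 arrays.

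Set against all genes, few had a ratio as low as that of Dusp1 with GW9662, and many did with epoxides. For GW9662 over vehicle, 135 of 15795 measured genes (0.855%) had a ratio as low or lower, and outside the doubtful rows only 3 of 8886 did. These were Dusp1, Fbxw13 at -0.83 and Lce3b at -0.72, the last pair named after their values were seen and far dimmer on all arrays. For epoxides over vehicle, 1683 of 15812 genes (10.6%) were as low or lower, and 900 of 8892 outside those rows. Among genes of similar signal the range between the 5th and the 95th percentile ran from -0.44 to 0.36 for epoxides and from -0.20 to 0.18 for GW9662, and Dusp1 lay below both ranges.

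Dusp2, an inducible nuclear phosphatase of immune cells, had a lower level with GW9662 than on the other arrays. Its level was -3.50 with epoxides and -4.0 with GW9662, against -3.47 with vehicle. The epoxide and vehicle arrays thus lay close together and the GW9662 array below them. The log2 ratio was -0.03 for epoxides over vehicle and -0.53 (1.44-fold lower) for GW9662 over vehicle, with error model SDs of 0.253 and 0.289, and 0.50 for epoxides over GW9662, with an SD of 0.270. The probe (chromosome 2, 127163930 to 127163989, mm9) lies in row 366, so that no value remains without the doubtful rows, and with normexp background correction the GW9662 ratio was -0.35 and that of epoxides over GW9662 was 0.18. Its 214 and 216 measured neighbours had median ratios of -0.09 for epoxides and -0.02 for GW9662.

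Dusp4, a nuclear phosphatase of ERK and JNK, differed little. Its level was -1.5 with epoxides and -1.59 with GW9662, against -1.34 with vehicle. The ratios of -0.16 and -0.26 had error model SDs of 0.206 and 0.207, and with a trend in the GC content of probes and in signal removed they were -0.003 and -0.22. The probe is on chromosome 8 (35882045 to 35882104, mm9), in row 261.

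Dusp6, the cytoplasmic phosphatase that is selective for ERK, had nearly the same level on the epoxide and vehicle arrays and a slightly lower one with GW9662. The levels were 3.06 with epoxides and 2.91 with GW9662, against 3.09 with vehicle. The ratio was -0.03 for epoxides over vehicle and -0.18 (1.13-fold lower) for GW9662 over vehicle, with an SD of 0.204 from the error model for each, so that both lie within it. The GW9662 ratio nevertheless lay below the range of genes of similar signal between these percentiles, which ran from -0.16 to 0.12. The probe is on chromosome 10 (98729985 to 98730044, mm9), in row 156.

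Dusp10, a phosphatase that prefers JNK and p38, was read on chromosome 1 (185898608 to 185898667, mm9) in row 145. Its level was -3.41 with epoxides and -3.65 with GW9662, against -3.60 with vehicle. The ratio of 0.18 for epoxides over vehicle had an error model SD of 0.267, and that of -0.05 for GW9662 over vehicle one of 0.289. It had the highest epoxide ratio of the 7 measured genes of those named at the start, within the error. Over the processing alternatives it ran from 0.07 to 0.40, except with the value table, where it was -0.05.

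Spred1 and Spred2, membrane-bound inhibitors of the Ras to Raf step, differed from vehicle by at most 1.19-fold in each of their 4 probes. Spred2 (row 471, chromosome 11, 19922416 to 19922475, mm9) had levels of -0.87 with epoxides and -0.89 with GW9662, against -1.03 with vehicle. Both treated arrays were thus above vehicle, by 0.16 and 0.14, with error model SDs of 0.206 and 0.207. The Spred1 probe with the highest signal (row 133, chromosome 2, 117005906 to 117005965, mm9) had levels of 2.67 with epoxides and 2.82 with GW9662, against 2.79 with vehicle.

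The 3 Spred1 probes did not order the arrays alike. For epoxides over vehicle their ratios were -0.12 (row 133), 0.25 (row 356) and 0.01 (row 432), and for GW9662 over vehicle they were 0.03, 0.04 and 0.10. The error model SDs ran from 0.204 to 0.236. The probe in row 356 (chromosome 2, 116998491 to 116998550, mm9) is assigned by the files to another transcript than the other 2. For Spred1 as a gene, no direction with epoxides could therefore be given.

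Spry1, Spry2 and Dusp5 were at or near background. Spry1 and Spry2 encode Sprouty proteins, which restrain signalling from receptor tyrosine kinases, and Dusp5 a nuclear phosphatase selective for ERK. Dusp5 (row 23, chromosome 19, 53615682 to 53615741, mm9) and Spry1 (row 156, chromosome 3, 37543403 to 37543462, mm9) were not well above background on any array, with intensities of 13.1 to 22.4 and of 18.2 to 27.0, so no ratio is given for them. Spry2 (row 273, chromosome 14, 106291845 to 106291904, mm9) was above background with epoxides, at a level of -5.12, and with GW9662, at -4.64, but not with vehicle, at -4.88.

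The bound for Spry2 with GW9662 over vehicle was 1.15-fold, taken against the lowest level called well above background with vehicle, -4.84. That limit is the lowest over all spots of the array and was not found for this spot. The error model SD of the ratio of GW9662 over vehicle, 0.440, is larger than the log2 bound of 0.20. The bound thus lies within the error of the spot, and Spry2 cannot be called higher. For epoxides over vehicle there was no bound, since the level with epoxides was below that limit. The ratio of epoxides over GW9662 was -0.48 with an error model SD of 0.378. The probe is in the doubtful rows, and its value is near the limit of detection on all arrays.

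**Figure D2:**
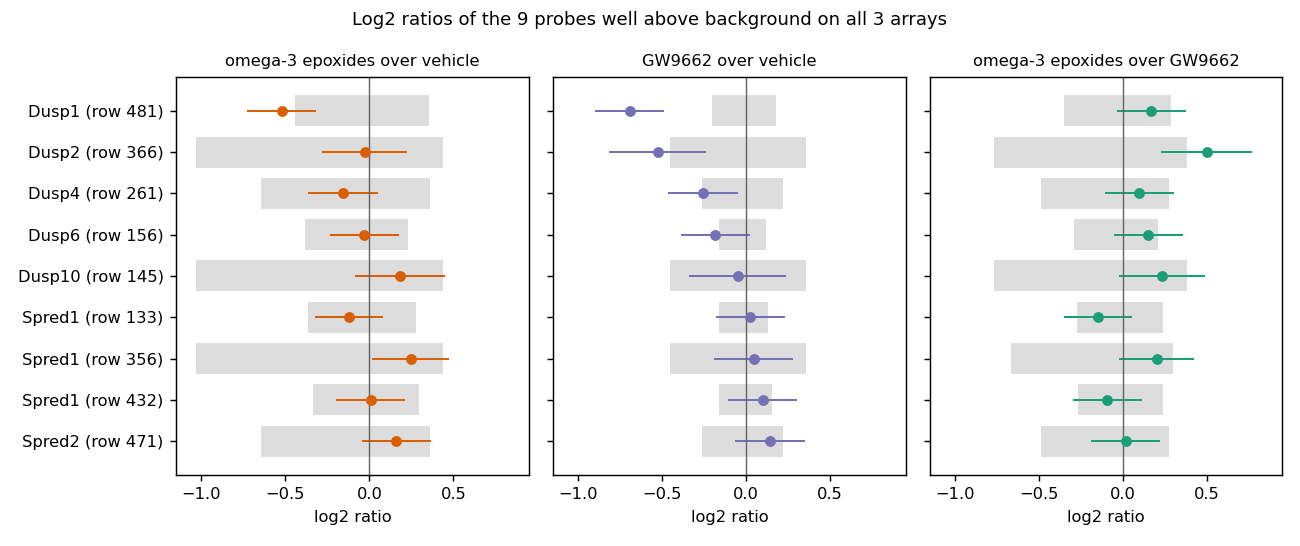
Log2 ratios of the 9 probes that were well above background on all 3 arrays, for omega-3 epoxides over vehicle, GW9662 over vehicle and omega-3 epoxides over GW9662. Points are single ratios, bars the SD of the scanner software's error model and grey bands the range between the 5th and the 95th percentile of genes of similar signal. Dusp1 lies left of its band in both comparisons with vehicle, at -0.52 and -0.69.

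Over the family, 7 of 10 genes were measured for epoxides over vehicle, and 5 of these, Dusp1, Dusp2, Dusp4, Dusp6 and Spred1, had ratios below 0, where 61.1% of all measured genes did. The sign for Spred1 is that of its brightest probe and turned with the mean of its probes and with the value table, and those of Dusp2 and Dusp6 turned under 4 alternatives each. The median was -0.03 over the 7 genes and -0.07 over all 15812. None of the 7 was 2-fold higher or lower, against 0.215% higher and 2.07% lower of all genes, and none was 1.5-fold apart, against 1.34% higher and 8.84% lower. Only Dusp1 lay outside the range of genes of similar signal, below the 5th percentile, as do 5.01% of all genes.

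For GW9662 over vehicle, all 5 phosphatases measured, Dusp1, Dusp2, Dusp4, Dusp6 and Dusp10, had ratios below 0, and Spred1 and Spred2 had ratios above 0. Dusp10 at -0.05 and Spred1 at 0.03 lay within error model SDs of 0.289 and 0.204, and both signs turn with the value table. Among the further DUSP, Sprouty and Spred genes described below, 4 of 9 measured were below 0 and 5 above, all between -0.09 and 0.10. The SD of this ratio from repeated copies of other probes was 0.0798, so these signs do not settle whether a direction was shared. Of all measured genes 57.8% were below 0 and 42.2% above. The median was -0.18 over the 7 genes and -0.02 over all 15795. Without the doubtful rows, which hold Dusp2 and Dusp4, the median of the remaining 5 was -0.05. None was 2-fold apart, against 0.355% higher and 0.469% lower of all genes. Dusp1 was the 1 gene at least 1.5-fold lower, against 1.15% of all, and none was 1.5-fold higher, against 0.696%. Dusp1, Dusp2 and Dusp6 lay below the 5th percentile of genes of similar signal, as do 5% of all genes.

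For epoxides over GW9662, with Spry2 added, 6 of 8 ratios were above 0 (38.9% of all genes), with a median of 0.13 against -0.06 over all 16044 genes. The pair below 0 were Spred1 at -0.15 and Spry2 at -0.48. None was 2-fold apart, against 0.206% higher and 0.954% lower of all genes, nor 1.5-fold apart, against 0.947% higher and 4.79% lower. Dusp2 at 0.50 was the 1 gene above the 95th percentile of genes of similar signal, as are 5.05% of all. These 3 comparisons share arrays and are not independent readings. With the columns of the value table, the sign of each of these ratios turns.

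**Figure D3:**
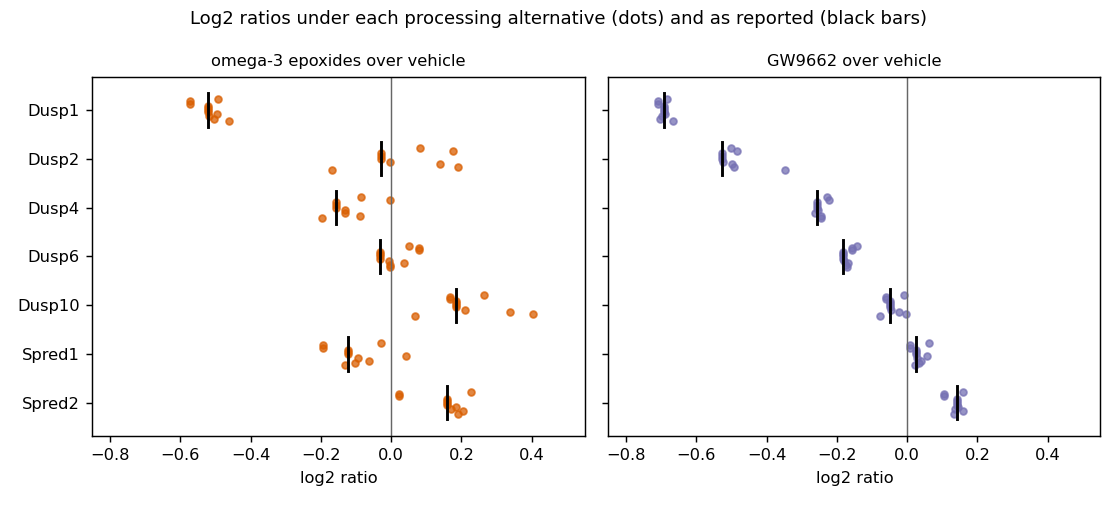
Log2 ratios of the 7 measured genes over vehicle, for omega-3 epoxides on the left and GW9662 on the right, as reported (black bars) and under each processing alternative other than the value table (dots). Dusp1 stays between -0.57 and -0.46 with epoxides and between -0.71 and -0.67 with GW9662, while Dusp2 with epoxides runs from -0.17 to 0.19.

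**Figure D4:**
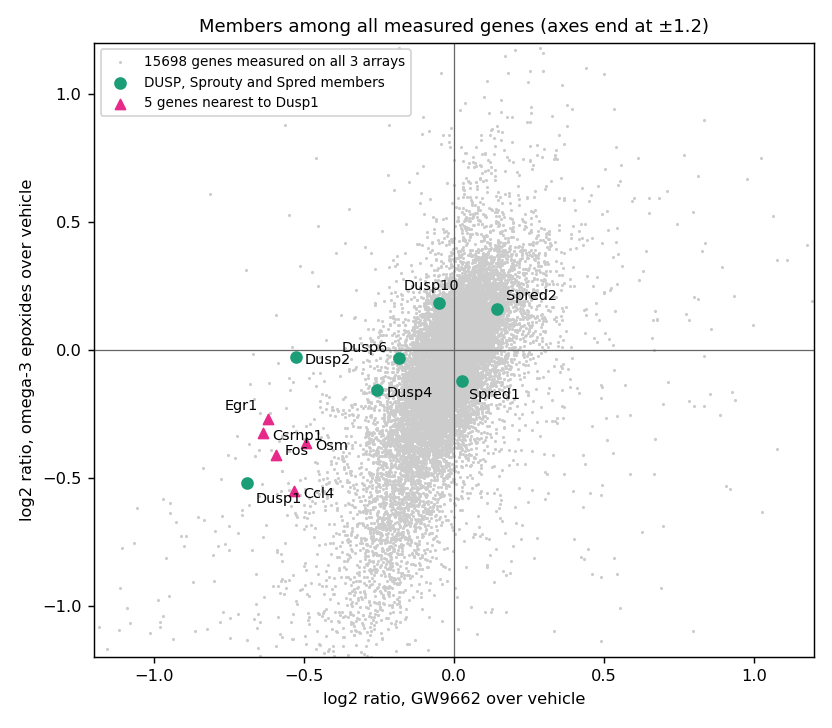
Log2 ratios over vehicle with GW9662 (horizontal axis) and with omega-3 epoxides (vertical axis) for the 15698 genes measured on all 3 arrays (grey), the measured family members (circles) and the 5 genes nearest to Dusp1 by the likeness rule (triangles). Both axes share the vehicle array, so that the slant of the cloud is no result. Dusp1 lies at the lower left beside Fos and Ccl4, while the other members lie nearer to 0 on 1 or both axes.

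The genes most like Dusp1 over the 3 arrays were looked for among 7849 genes at or above the median level, by the distance between their pairs of ratios over vehicle. The nearest was Fos, a subunit of the AP-1 transcription factor, at -0.41 for epoxides and -0.59 for GW9662 (distance 0.146). Next came the chemokine Ccl4 at -0.55 and -0.53 (0.162), the nuclear protein Csrnp1 at -0.32 and -0.64 (0.205), the cytokine Osm at -0.36 and -0.49 (0.253) and the transcription factor Egr1 at -0.27 and -0.62 (0.262). For Dusp6 the nearest were the replication factor Mcm3 (distance 0.002), Arhgap9 (0.010), Gdap10 (0.019), Slc39a13 (0.022) and Trim41 (0.022), whose ratios lay between -0.05 and -0.02 for epoxides and between -0.20 and -0.17 for GW9662. A likeness over 3 arrays rests on 2 numbers a gene.

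Transcripts known to be induced by ERK had ratios below 0 in most measured members on both treated arrays. For epoxides over vehicle, 11 of 12 measured of 15 were below 0, against 61.1% of all genes, with a median of -0.22, and the farthest from 0 were the AP-1 subunits Junb at -0.57, Fosb at -0.56 and Fos at -0.41. Junb and Fosb were dim, at levels of -2.78 and -2.67 with epoxides, between those of Dusp2 and Dusp4. The 5th percentile of this ratio was -1.03 among genes of similar signal to Dusp2 and -0.65 among those of similar signal to Dusp4. For GW9662 over vehicle, 9 of 12 were below 0, against 57.8% of all genes, with a median of -0.36, and 3 were at least 1.5-fold lower, as were 1.15% of all genes: Fos at -0.59 and the zinc finger proteins Egr1 at -0.62 and Egr2 at -0.68. Egr1 was read in row 321, in the doubtful rows. None of the 12 was 2-fold apart in either comparison. Of all genes 0.215% were 2-fold higher and 2.07% lower with epoxides, and 0.355% and 0.469% with GW9662. For epoxides over GW9662, 6 of 12 were above 0, against 38.9% of all genes, and the median was 0.05. The list was chosen with results of these arrays known and is no independent evidence of its direction.

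Of 19 genes of the ERK cascade from Grb2 and Ras to Rsk, all measured, 11 had ratios below 0 for epoxides (median -0.05) and 12 for GW9662 (median -0.01), against 61.1% and 57.8% of all genes. None was 1.5-fold lower, against 8.84% and 1.15% of all genes, and none was 1.5-fold higher, against 1.34% and 0.696%. With epoxides the farthest from 0 were the scaffold Ksr1 at -0.45, the ERK kinase Map2k2 at -0.42 and the ERK substrate kinase Rps6ka1 at -0.29. With GW9662 they were Rps6ka3 at 0.23, Rps6ka1 at -0.17 and Ksr1 at -0.16. Ksr1 was dim, at a level of -3.31 with epoxides. Among genes of similar signal to Dusp2, at -3.50, the 5th percentile of the ratio of epoxides over vehicle was -1.03. Mapk3, which encodes ERK1, had -0.14 with epoxides and -0.04 with GW9662.

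Of 16 genes of the JNK and p38 cascades, 14 were measured, with 7 ratios below 0 for epoxides (median -0.04) and 9 for GW9662 (median -0.02), against 61.1% and 57.8% of all genes. With epoxides the p38 genes Mapk11 and Mapk13 had -0.64 and -0.42 and the JNK kinase Map2k4 had 0.32. Mapk11 and Mapk13 were dim, at levels of -3.80 and -4.21 with epoxides, below that of Dusp2 at -3.50. Among genes of similar signal to Dusp2, the 5th percentile of the ratio of epoxides over vehicle was -1.03. With GW9662 the AP-1 subunit Jun had -0.36, and Mapk11 and the p38 kinase Map2k6 had -0.20 each. Mapk11 with epoxides was the 1 gene of this list at least 1.5-fold lower, as were 8.84% of all genes.

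Of 14 further members of the DUSP, Sprouty and Spred families, 9 were measured, with 5 ratios below 0 for epoxides (median -0.002) and 4 for GW9662 (median 0.02), against 61.1% and 57.8% of all genes. With epoxides the farthest from 0 were Dusp8, a phosphatase of JNK and p38, at -0.63, Dusp23 at 0.31 and Dusp7, a phosphatase of ERK, at -0.21. With GW9662 they were Dusp23 at 0.10, Dusp7 at -0.09 and Dusp18 at 0.09. Dusp8 was dim, at levels of -5.12, -4.47 and -4.50 on the epoxide, GW9662 and vehicle arrays. Its probe (row 262) and that of Dusp18 (row 296) lie in the doubtful rows. Spry3, Spry4, Spred3, Dusp9 and Dusp22 were not well above background on any array, and Spry4 is also on the list of ERK-induced transcripts.

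Of 11 other brakes on Ras signalling, 10 were measured, with 7 ratios below 0 in each comparison with vehicle and medians of -0.11 for epoxides and -0.09 for GW9662. The share of all genes below 0 was 61.1% for epoxides and 57.8% for GW9662. Rasal1 (row 274, in the doubtful rows) was well above background with GW9662 alone, at levels of -7.85 with epoxides and -4.32 with GW9662, against -7.14 with vehicle. With epoxides the Ras GTPase activators Rasa2, Rasa1 and Dab2ip had 0.34, -0.30 and 0.28. Rasa2 (row 211) and Dab2ip (row 233) also lie in the doubtful rows. With GW9662 Rasa1 had -0.54, the ubiquitin ligase Cbl 0.15 and Rasal3 -0.13. For epoxides over GW9662 the medians of these 4 lists, in the order given (ERK cascade, JNK and p38 cascades, further family members and Ras brakes), were -0.05, 0.06, -0.04 and 0.03.

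The bases before the start of Dusp1 and Dusp2, the genes of the family with the lowest ratios for GW9662 over vehicle, are shown, since both are known as early-response genes, whose transcription is set by short sites near the start. They are the 250 bases before the RefSeq start of Dusp1 (GRCm38.p6, minus strand, chr17:26508473-26508722) and of Dusp2 (GRCm38.p6, plus strand, chr2:127335909-127336158), 5′ to 3′. Capitals mark TGACG on either strand, which is also the start of TGACGTCA, the site bound by the cyclic AMP response factor CREB and its relatives.
Dusp1: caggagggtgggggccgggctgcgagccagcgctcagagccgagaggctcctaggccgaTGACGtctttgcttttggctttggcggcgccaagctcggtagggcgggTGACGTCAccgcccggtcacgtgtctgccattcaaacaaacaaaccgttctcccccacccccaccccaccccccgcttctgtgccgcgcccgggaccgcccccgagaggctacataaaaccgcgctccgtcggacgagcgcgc
Dusp2: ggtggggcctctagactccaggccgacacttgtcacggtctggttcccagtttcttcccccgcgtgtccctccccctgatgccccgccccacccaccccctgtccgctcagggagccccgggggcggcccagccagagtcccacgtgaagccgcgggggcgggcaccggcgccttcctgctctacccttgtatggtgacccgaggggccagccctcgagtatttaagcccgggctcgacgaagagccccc
The Dusp1 window held TGACGTCA starting 143 bases before the start, and TGACG 3 times, at 191, 143 and 140 bases, of which those at 143 and 140 bases overlap as both strands of TGACGTCA. The Dusp2 window held neither. Of 32851 windows of this length, 1.55% held TGACGTCA and 17.8% held TGACG on either strand.

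Promoters in the RefSeq table were found for 9 of the 10 genes, all but Dusp4. TGACGTCA was in Dusp1 alone of these 9, and TGACG also in Dusp5 and Spred2, 1 time each. A CArG box, the site of serum response factor, stood 2 times side by side in Dusp5, starting 82 and 72 bases before the start, and in none of the other 8, against 1.47% of all windows. The AP-1 site TGACTCA, searched on both strands, was in none of the 9 and in 4.46% of all windows. A match says only that the letters are there.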

How the data were processed

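Total RNA (200 ng per labelling) was labelled with Cy3 and hybridised to 1-colour Agilent arrays, 3 in all, which the file headers place on 1 slide, 1 scan and design build mm9. Agilent Feature Extraction 11.5.1.1 was used, per the submitters' processing notes. Per the file headers gProcessedSignal, gMeanSignal and gBGMedianSignal are intensity values, and the first has background subtracted and a within-array trend taken out, with no scaling across arrays. The authors' deposited value table holds a linear ratio, the processed intensity over a constant of each array (quotients constant to 0.001, with the treated columns exchanged). Column medians over all spots, controls included, were 0.0455 for epoxides, 0.0369 for GW9662 and 0.0475 for vehicle. Which of the treated columns is right is not settled by the labels.

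From the scanner files, levels were computed as log2 gProcessedSignal minus log2 of its 75th percentile among 43020 non-control spots, of which 54.6%, 53.3% and 52.3% were well above background on the epoxide, GW9662 and vehicle arrays. Spots marked as outliers (221, 251 and 230, none of them a member) were left out and copies averaged. No spot was saturated. Probes were named by accession through RefSeq (28330 of 39429) or else by the file, and a gene was read by its brightest probe. Similar signal means 1 of 10 equal bins of mean level. For a bound the dim array was given its lowest level well above background, unless its own level was higher.

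With 1 array per group no test was made, and the number of arrays limits the precision. The ratios were recomputed under 12 alternatives, and 1 added after the data were seen. The pipeline was tested on simulated data. Named were all member probes, the 3 genes farthest from 0 of each of 5 lists (for the comparisons with vehicle), and the 5 genes nearest to Dusp1 and to Dusp6. Values of some genes on the lists are not reported here. The members and lists were chosen with earlier results of these data known. Python 3.11.15, pandas 2.3.3, R 4.3.3 and limma 3.58.1 (normexp offset 50) were used.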

Additional observations from a re-analysis of the deposited data

How the results depend on the processing

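The ratio of Dusp1 over vehicle kept its sign under all 12 alternatives with a value, but not all of these could have turned it. Averaging probes, keeping dim probes or outlier spots, and leaving out the doubtful rows could not alter it. Dusp1 has 1 probe, above background, not marked as an outlier and outside those rows. Leaving the value table aside the Dusp1 ratio ran from -0.57 to -0.46 for epoxides and from -0.71 to -0.67 for GW9662. The value table's columns only exchange the ratios, to -0.69 and -0.52. That of Dusp2 for GW9662 ran from -0.53 to -0.35 over 9 alternatives other than the value table, where it was -0.03. For epoxides Dusp2 ran from -0.17 to 0.19, so no direction held.

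The median over the members, -0.03 for epoxides over vehicle, was -0.131 with normexp, -0.183 with the value table, -0.140 with no filter on dim probes and 0.0498 with the median of each block of 20 rows by 17 columns removed, an alternative chosen after seeing the data. For GW9662 over vehicle, -0.18 became -0.0311 with the value table, -0.0492 without the doubtful rows and -0.0611 when a trend over probe GC content and level was also removed. For epoxides over GW9662, 0.13 became -0.125 with the value table, by its exchanged columns. The number of members below 0 for epoxides over vehicle, 5 of 7, was 3 of 7 with cyclic loess, with the trend removed and with block medians removed, 8 of 10 with no filter on dim probes, 3 of 5 without the rows and 2 of 5 with both changes. For GW9662 over vehicle, 5 of 7 was 3 of 5 without the rows, with or without the trend. For epoxides over GW9662, 2 of 8 was 6 with the value table and 1 of 5 without the rows. Without the rows fewer members are measured, and for the other settings the cause was not tested. No member was 2-fold apart, except 1 (Dusp5 with epoxides, not above background) with no filter on dim probes, and 1 (Dusp1 with GW9662) passed 1.5-fold. Dusp2, Dusp4 and Spry2 have no value without the rows.

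Over all genes the share higher among those 2-fold apart for epoxides over vehicle was 9.42%, and 31.0% with quantile normalization, 23.0% with cyclic loess, 33.3% with the trend removed and 54.8% with the trend and the doubtful rows removed. For epoxides over GW9662 it was 17.7%, and 39.2%, 33.6%, 38.9% and 77.3% in the same order. For GW9662 over vehicle it was 43.1%, and 100% (3 genes) without the doubtful rows. The numbers 2-fold higher and lower for epoxides over vehicle were 34 and 327, and 63 and 140 with quantile normalization, 16 and 127 with normexp and 590 and 2366 with no filter on dim probes. The median of all genes for epoxides over vehicle, -0.07, was 0.01 with quantile normalization. No paired analysis was possible because each group is 1 array. Signal over background limits Dusp5, Spry1 and Spry2.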
